A study of Mus musculus with 4 samples.

Results

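The 40 genes described here code for proteins that copy DNA or that cells make when they enter S phase, from the MCM helicase to the enzymes that supply deoxynucleotides. They were chosen by symbol, and all 40 were present among the 32285 genes of both single-cell tables. They were followed in T cells sorted from B16 melanoma, a transplantable mouse tumor. The WT mice carried Vsir fl/fl, that is, the gene for VISTA flanked by loxP sites, and no Cre. VISTA-KO mice carried Vsir fl/fl and CD4-Cre, which recombines in developing T cells, so that CD4+ and CD8+ cells alike are targeted. Both groups received a peptide vaccine and antibody against CTLA-4, so no library shows untreated tumors. Tumors were pooled within a genotype, and each pool gave 1 gene expression library and 1 T cell receptor library. With 1 pool per genotype the spread between mice is unknown, and no difference was tested. The 95% intervals below cover counting error only and are exact for shares and levels and approximate for ratios. They treat each cell or RNA molecule as independent, which cells of 1 clonotype and molecules of 1 cell are not.

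Before a cell divides it loads the MCM helicase onto replication origins with the help of Cdc6. On entry into S phase the helicase is switched on by Cdc45 and the GINS complex, primase and polymerase alpha start each new strand, and the sliding clamp Pcna holds the polymerases on DNA. E2F transcription factors, released from the retinoblastoma protein late in G1, drive many of these genes together. In T cells the program is part of clonal expansion after antigen recognition, and resting naive and memory cells hold little of it.

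Of the members, 32 had an entry in a RefSeq table of promoters (GRCm38.p6, 250 bases before to 50 bases after the start site). Entries were not found for Gins2, Usp1, Dscc1, Tipin, Mcm4, Rfc2, Exo1 and Gmnn. An E2F motif, written as TTTCCCGC, TTTCGCGC, TTTGCCGC or TTTGGCGC and searched on both strands, lay in the promoters of 13 of the 32 genes (40.6%), against 2.60% of all 27025 genes with an entry. It lay in 13 of 41 genes (31.7%) of a list of other replication genes and in 1 of 26 genes (3.85%) of a list of mitosis genes. In a list of G1 control genes it lay in 8 of 19 (42.1%), a share like that of the members. The TTTGAA motif known from promoters of G2/M genes had the opposite pattern, at 12.5% of the members, 73.1% of the mitosis list and 20.2% of all genes. The short CCAAT motif lay in 65.6%, 88.5% and 41.1%, respectively. A match describes these letters only and was not tested as a binding site. Promoters are shown for 4 members that the results turn on, as the 250 bases before the start site, read 5′ to 3′ on the strand of the gene.

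Mcm6, 1 of the 3 members with the most UMIs, Cdc6 and Dtl are shown with their E2F motifs in capitals, and Rrm2, which had no E2F match and the highest VISTA-KO to WT ratio in CD8 cells, with its CCAAT motif in capitals. In Mcm6 (chr1:128359706-128359955, minus strand) 3 matches began 110, 106 and 47 bases before the start site, and the first and second overlap on opposite strands, so that they appear as 1 run. The Cdc6 match (chr11:98907901-98908150, plus strand) began 138 bases before the start site, the Dtl match (chr1:191575545-191575794, minus strand) 8 bases and the Rrm2 match (chr12:24708004-24708253, plus strand) 50 bases. The Cdc6 stretch lies inside the annotated span of the gene (chr11:98907709-98923942), since its promoter entry has a start site further downstream.
Mcm6: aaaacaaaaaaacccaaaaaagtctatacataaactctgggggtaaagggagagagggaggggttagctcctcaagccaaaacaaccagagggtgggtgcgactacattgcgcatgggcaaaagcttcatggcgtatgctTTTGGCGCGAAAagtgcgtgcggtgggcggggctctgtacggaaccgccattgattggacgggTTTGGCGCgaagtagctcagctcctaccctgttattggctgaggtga
Cdc6: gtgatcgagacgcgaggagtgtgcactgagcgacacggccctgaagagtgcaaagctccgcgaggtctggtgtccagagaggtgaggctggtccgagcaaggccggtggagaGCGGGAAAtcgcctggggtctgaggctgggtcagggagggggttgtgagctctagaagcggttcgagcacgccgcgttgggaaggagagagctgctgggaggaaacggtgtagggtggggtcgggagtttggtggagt
Dtl: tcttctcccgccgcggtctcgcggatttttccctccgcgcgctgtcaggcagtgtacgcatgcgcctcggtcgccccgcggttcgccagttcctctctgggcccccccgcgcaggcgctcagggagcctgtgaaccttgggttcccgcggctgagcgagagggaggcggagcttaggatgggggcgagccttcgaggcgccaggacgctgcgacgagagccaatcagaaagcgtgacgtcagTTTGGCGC
Rrm2: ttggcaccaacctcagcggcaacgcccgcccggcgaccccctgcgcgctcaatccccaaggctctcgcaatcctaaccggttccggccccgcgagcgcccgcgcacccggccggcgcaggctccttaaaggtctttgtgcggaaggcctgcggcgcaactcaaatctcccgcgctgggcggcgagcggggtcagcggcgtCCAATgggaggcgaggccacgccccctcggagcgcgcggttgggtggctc

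The WT library held 72098984 UMIs (distinct RNA molecules) in 10337 barcodes and the library labelled VISTA-KO 59916814 UMIs in 10085 barcodes. After removal of cells below 600 detected genes or with 30% or more of mitochondrial UMIs, 10224 and 9946 remained. They were classed by their own UMIs as CD8 cells (Cd8a or Cd8b1, no Cd4), conventional CD4 cells (Cd4, no Foxp3) and regulatory cells (Cd4 and Foxp3), and 13.5% of WT and 12.8% of VISTA-KO cells fell in no class. The WT classes held 5549 CD8, 1768 conventional CD4 and 1528 regulatory cells, and those of VISTA-KO 4350, 3048 and 1270. The T cell markers Cd3d, Cd3e and Cd3g stood between 962 and 1583 CPM (a gene's UMIs per 1000000 UMIs of the class) in every class, and in regulatory cells Il2ra stood at 133 and 203 CPM and Ikzf2 at 432 and 571 CPM. The gate on Cd4 let in cells that also held Cd8a or Cd8b1 UMIs, 32.7% of WT and 20.9% of VISTA-KO conventional CD4 cells and 52.0% and 29.5% of regulatory cells. In WT conventional CD4 cells Cd8a, Cd8b1 and Cd4 stood at 373, 524 and 331 CPM, and in VISTA-KO at 191, 266 and 484 CPM. In regulatory cells they stood at 340, 517 and 204 CPM in WT and at 156, 233 and 339 CPM in VISTA-KO. Taking Cd8a and Cd8b1 together, both WT gates and the VISTA-KO regulatory gate thus held more Cd8 than Cd4 RNA. The VISTA-KO conventional CD4 gate did not. In both gates the Cd8 genes were higher and Cd4 lower in WT than in VISTA-KO. Markers of other cells were also present, with Siglech, of plasmacytoid dendritic cells, at 212 and 87.7 CPM in conventional CD4 cells of WT and VISTA-KO and between 19.2 and 41.1 CPM in the other classes, and with the macrophage gene C1qa between 5.41 and 26.5 CPM in all classes. The melanoma gene Pmel differed between the libraries in every class, at 2.99 and 87.5 CPM in CD8 cells of WT and VISTA-KO, 80.4 and 5.55 CPM in conventional CD4 cells, and 0.820 and 83.1 CPM in regulatory cells. With cells of 10 or more melanoma marker UMIs left out, the ratios of VISTA-KO over WT of the shares given next were 1.05, 0.918 and 0.618 in the 3 classes, and the medians of the members' log2 ratios 0.02, -0.21 and -0.45. The part of Siglech and C1qa in the results was not tested. Vsir itself stood at 112 CPM (108 to 115) and 111 CPM (107 to 115) in CD8 cells of WT and VISTA-KO, at 109 and 117 CPM in conventional CD4 cells and at 112 and 117 CPM in regulatory cells. The tables do not say where in Vsir the UMIs lie, so they bear neither on the deletion nor on the labels, and each library is called here as it is labelled. The libraries shared 144 kept barcodes, of which 72 had a receptor in both and 0 had the same one.

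About 1 CD8 cell in 6 held at least 5 summed UMIs of the 40 genes at equal depth, with shares of 17.1% in WT and 17.9% in VISTA-KO. How many different members a cell held was not counted. To bring cells to equal depth, each was thinned at random to 2000 UMIs, and the share with at least 5 summed UMIs of the 40 genes was taken. In CD8 cells this was 901 of 5259 WT cells (17.1%, 16.1 to 18.2) and 747 of 4164 VISTA-KO cells (17.9%, 16.8 to 19.1). Conventional CD4 cells had lower shares, 11.4% (9.94 to 13.1) of 1634 cells for WT and 10.4% (9.36 to 11.6) of 2890 cells for VISTA-KO. In regulatory cells the share was 18.3% (16.4 to 20.4) of 1483 cells for WT and 11.4% (9.67 to 13.3) of 1219 cells for VISTA-KO. The intervals of both libraries overlap in CD8 and conventional CD4 cells and not in regulatory cells. Without thinning the shares were 60.4% and 59.5% in CD8 cells, 46.5% and 43.7% in conventional CD4 cells, and 71.2% and 59.1% in regulatory cells, since deeper cells gather more UMIs of any gene.

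**Figure D1:**
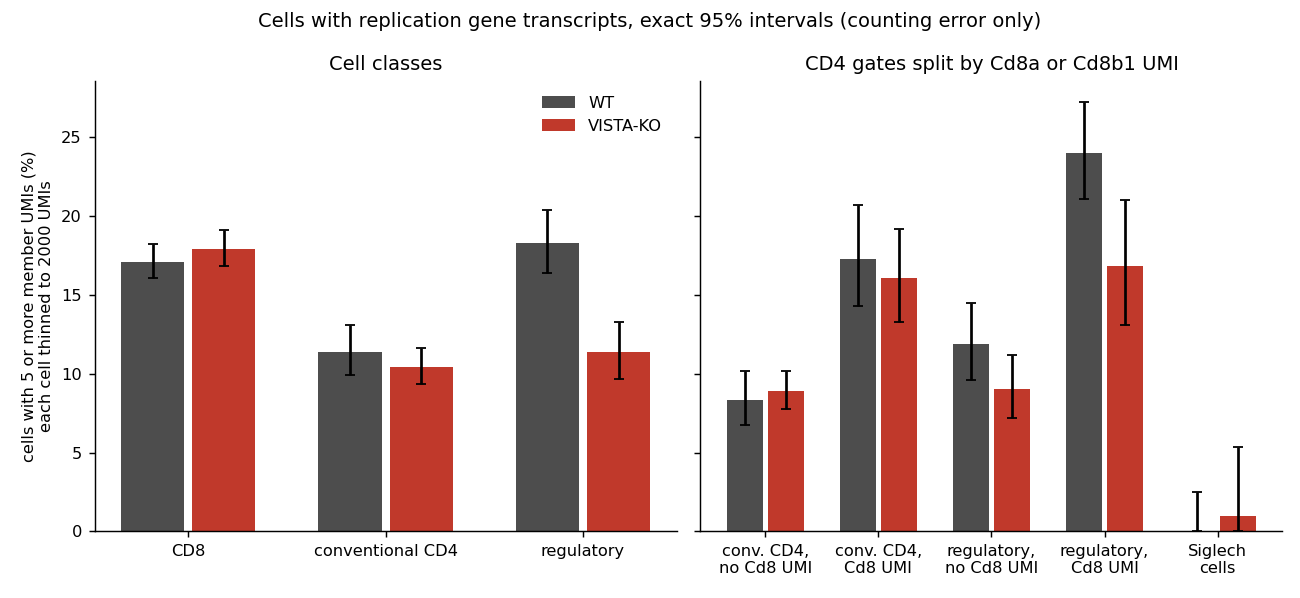
Share of cells with 5 or more summed member UMIs (y axis, percent, each cell thinned to 2000 UMIs) in WT (grey) and VISTA-KO (red), by class on the left and, on the right, for the CD4 gates split by a Cd8a or Cd8b1 UMI and for cells with Siglech UMIs; lines are exact 95% intervals. CD8 bars stand at 17.1% and 17.9%, regulatory bars at 18.3% and 11.4%, and the Siglech cells near 0.

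Cells of a kind that seldom divides rarely held this signal. Among cells with at least 2 Siglech UMIs and no Cd3e UMI, which mark plasmacytoid dendritic cells, 0 of 146 WT cells reached 5 member UMIs, which allows a share of up to 2.05%, and 1 of 102 VISTA-KO cells did (0.980%), at median depths of 8300 and 8717 UMIs before thinning. The shares of the 3 classes all lay above these.

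The sums were spread unevenly over cells. The median CD8 cell held 2 member UMIs out of 2000 in both libraries, while the fullest held 41 in WT and 38 in VISTA-KO. At 10 or more summed UMIs the CD8 share was 6.26% (5.62 to 6.94) for WT, or 329 cells, and 8.14% (7.33 to 9.01) for VISTA-KO, or 339 cells. At 20 or more they were 1.22% (0.938 to 1.55) and 1.95% (1.55 to 2.41). The CD8 intervals of the libraries thus overlapped at 5, were apart at 10 and met at 20. In regulatory cells the shares at 10 or more were 8.29% in WT and 4.18% in VISTA-KO, and in conventional CD4 cells 4.10% and 3.49%. At 20 or more, 16 regulatory cells remained in each library, 1.08% and 1.31%, and conventional CD4 cells gave 0.796% and 1.07%, so that the order turned in both. CD8 cells at or above 5 member UMIs had median depths before thinning of 9285 UMIs in WT and 8943 in VISTA-KO, against 4783 and 5090 below it. Cells with at least 2 productive beta chains made up 2.44% and 5.09% of the CD8 cells above the threshold and 3.07% and 5.21% of those below it. In regulatory cells the depths differed more between the libraries, at 19894 UMIs in WT and 11811 in VISTA-KO from 5 member UMIs upwards. Below 5 they were 7802 and 5873 UMIs. Cells with at least 2 beta chains were 4.41% and 9.35% of the regulatory cells above the threshold and 8.84% and 12.0% of those below it. The part of depth or doublets in the shares was not tested.

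The lower share of VISTA-KO regulatory cells moved with the Cd8 UMIs in the gate, whose part in the result was not tested. Regulatory cells without a Cd8a or Cd8b1 UMI gave 11.9% (9.60 to 14.5) for WT and 9.06% (7.22 to 11.2) for VISTA-KO, with overlapping intervals, whereas those with such a UMI gave 24.0% (21.1 to 27.2) and 16.8% (13.1 to 21.0). The latter had median depths of 14046 and 9461 UMIs, against 5501 and 5346 without a Cd8 UMI. Conventional CD4 cells without a Cd8 UMI gave 8.33% and 8.91%, so that the order of the libraries turned, and those with one 17.3% and 16.1%.

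Summed over all members, WT levels were 2343 CPM in CD8, 1875 CPM in conventional CD4 and 2273 CPM in regulatory cells. The VISTA-KO levels were 2394, 1590 and 1742 CPM, which gives ratios of 1.02, 0.848 and 0.766. For single genes, 5 CPM were added on both sides before the VISTA-KO level was divided by the WT level and log2 taken, which understates the change of genes with few counts, and a gene was counted as called at a log2 ratio of 0.5 in size. In CD8 cells 30 members reached 20 CPM in the WT or the VISTA-KO library and 0 of them were called, against 1.08% of the 6083 genes called higher and 0.690% called lower. Their median was 0.02, with a range from -0.14 to 0.37, and the median of all genes was -0.02. In conventional CD4 cells 26 members reached that level and 0 were called, where 1.50% of 6336 genes were called higher and 2.75% lower, with a median of -0.21 against -0.04 for all genes and 23 of the 26 below 0. In regulatory cells 8 of 30 members were called lower and 0 higher, where 2.50% of 6281 genes were called lower and 2.83% higher. Their median was -0.42 against -0.01 for all genes, and 29 of the 30 lay below 0. Of the 8 called, Dtl reached 20 CPM in WT alone, at 24.1 and 14.7 CPM. In a bulk sum of this kind fewer replicating cells and less RNA per such cell cannot be told apart. With cells holding Cd8 UMIs left out of the CD4 gates, and CD8 cells required to hold both Cd8a and Cd8b1 and no Foxp3, the medians were 0.05, -0.10 and -0.27. Those of all genes were then -0.02, -0.05 and -0.01, and 7 of 27 members were called lower in regulatory cells, against 2.68% of genes. As a mean of per-cell CPM the conventional CD4 median was -0.08, against -0.05 for all genes, so its distance from all genes shrank under both settings. The values closest to the limit in regulatory cells were those of Mcm5 (-0.50, called) and Rrm2 (-0.49, not called).

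**Figure D2:**
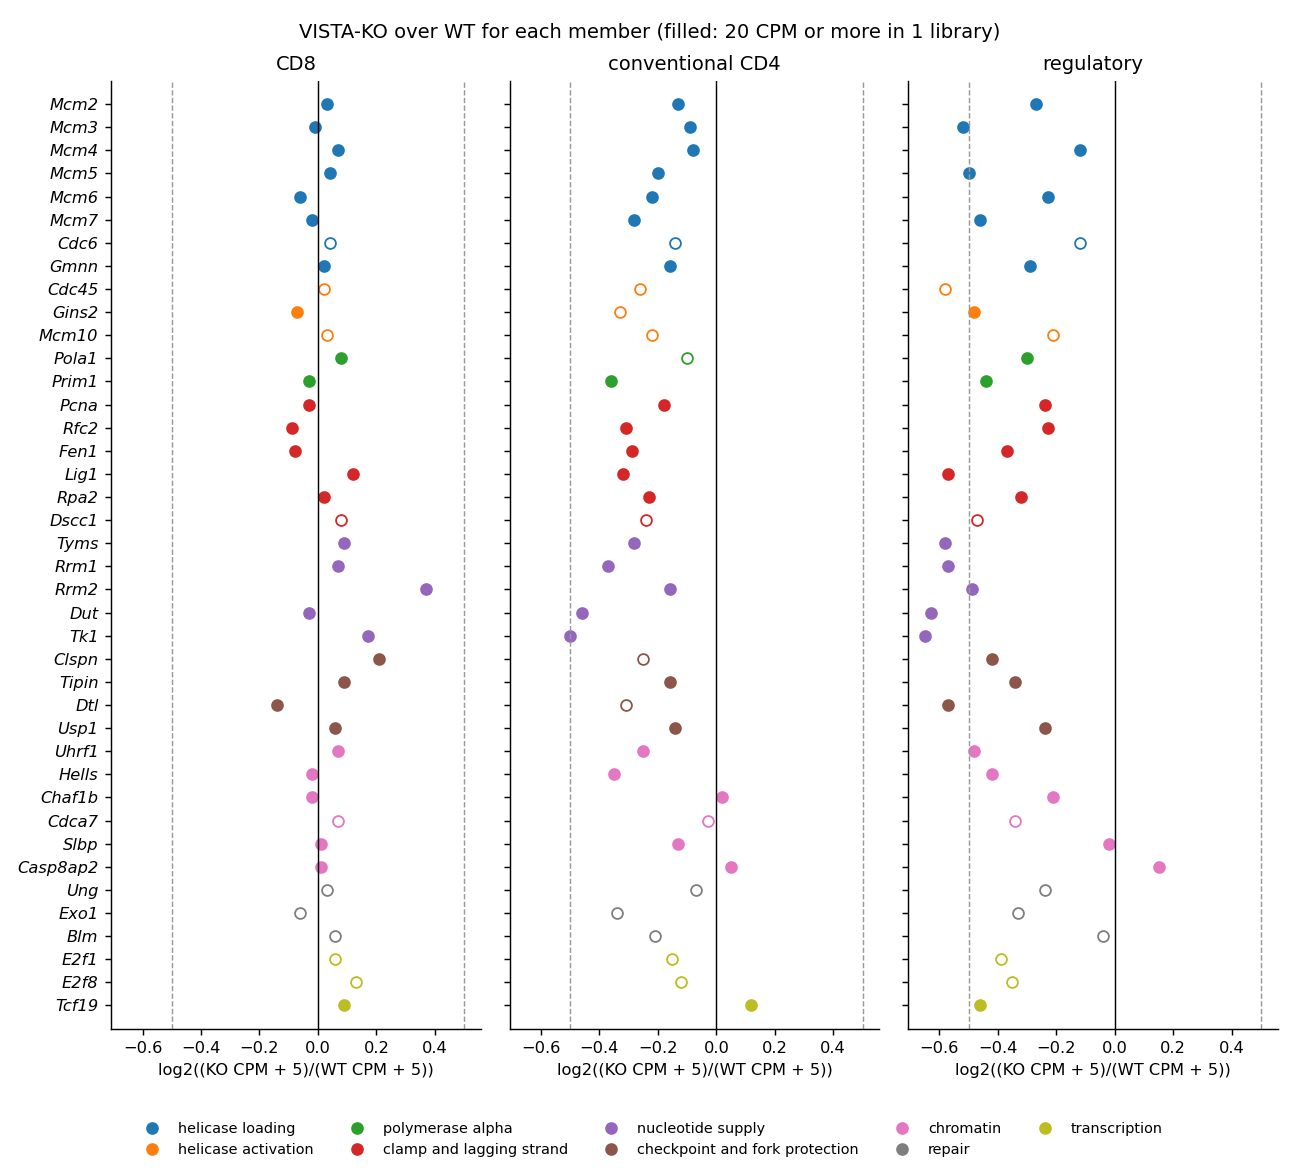
Log2 ratio of VISTA-KO over WT (x axis, CPM plus 5) for each of the 40 members (rows, colored by role) in the 3 classes, with filled points for members at 20 CPM or more in 1 library and dashed lines at 0.5 in size. Points lie around 0 in CD8 cells, mostly left of it in conventional CD4 cells and nearly all left of it in regulatory cells.

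The helicase loading genes were level in CD8 cells and lower in regulatory cells of the library labelled VISTA-KO. This group holds the 6 subunits of the MCM helicase (Mcm2 to Mcm7), its loader Cdc6, and Gmnn, whose product geminin blocks a further round of loading. Summed, they went from 671 CPM in WT to 674 CPM in VISTA-KO in CD8 cells (ratio 1.00), from 516 to 456 CPM in conventional CD4 cells (0.885) and from 659 to 523 CPM in regulatory cells (0.792). Mcm6 (chr1:128331575-128359705) stood at 180 CPM (175 to 184) and 172 CPM (168 to 177) in CD8 cells, 133 and 113 CPM in conventional CD4 cells, and 172 and 147 CPM in regulatory cells. Conventional CD4 cells of VISTA-KO were lowest of the 6 groups, while CD8 cells of both libraries and regulatory cells of WT lay together at the top. Among the subunits the regulatory log2 ratio differed, from -0.12 for Mcm4 (106 and 97.1 CPM) to -0.52 for Mcm3 (102 and 69.7 CPM) and -0.50 for Mcm5 (79.9 and 55.0 CPM), and Mcm3 and Mcm5 were called lower. Gmnn was at 64.5 and 65.3 CPM in CD8 cells and 69.2 and 55.7 CPM in regulatory cells. With Cd8 UMI cells left out, neither call remained, with Mcm3 at -0.41 and Mcm5 at -0.45 in regulatory cells. There Mcm7 was at -0.35, Gmnn at -0.25, Mcm2 at -0.19, Mcm4 at -0.17 and Mcm6 at -0.16. In conventional CD4 cells Mcm3 then turned, at 42.2 and 55.1 CPM (0.35). There Gmnn was at 0.06, Mcm5 at 0.04, Mcm2 and Mcm6 at -0.10, Mcm4 at -0.13 and Mcm7 at -0.15. Cdc6 did not reach 20 CPM in any group, and its CD8 levels were 10.4 CPM (9.36 to 11.4) and 10.8 CPM (9.63 to 12.1).

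Genes that activate the helicase and start strands were also level in CD8 cells and lower in both CD4 gates of VISTA-KO. The gap in conventional CD4 cells narrowed or turned when cells with Cd8 UMIs were left out. Cdc45 and Gins2 are parts of the active helicase, and Mcm10 helps to switch it on. Together they stood at 44.4 CPM for WT and 28.2 CPM for VISTA-KO in regulatory cells (ratio 0.634, 0.551 to 0.728), at 45.0 and 44.1 CPM in CD8 cells, and at 32.4 and 24.0 CPM in conventional CD4 cells. Gins2, the only one of them to reach 20 CPM, was at 22.7 and 21.4 CPM in CD8 cells and at 24.3 CPM (22.1 to 26.7) and 16.0 CPM (13.6 to 18.7) in regulatory cells (-0.48). Pola1, the catalytic subunit of polymerase alpha, and Prim1, the primase that makes the RNA primer, summed to 51.8 and 52.7 CPM in CD8 cells and 50.0 and 36.5 CPM in regulatory cells. In conventional CD4 cells without Cd8 UMIs, Cdc45 was at 6.29 and 6.46 CPM and Gins2 at 10.8 and 9.70 CPM. There Pola1 was at 16.2 and 17.7 CPM and Prim1 at 14.8 and 13.6 CPM.

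The clamp and lagging strand group was level in CD8 cells and lower in both CD4 gates of VISTA-KO. It holds the clamp Pcna, the clamp loader subunits Rfc2 and Dscc1, the flap endonuclease Fen1, the DNA ligase Lig1, and Rpa2, a subunit of the complex that coats single strands. Its sum was 457 CPM for WT and 453 CPM for VISTA-KO in CD8 cells, 369 and 304 CPM in conventional CD4 cells, and 415 and 324 CPM in regulatory cells. Lig1 showed the widest gap between CD8 and regulatory cells in this group, at 58.2 and 63.5 CPM in CD8 cells (log2 ratio 0.12) but 69.0 and 44.8 CPM in regulatory cells (-0.57). Rpa2 had the lowest ratio of regulatory over CD8 cells in both libraries, with 131 and 133 CPM in CD8 cells, 88.1 and 74.1 CPM in conventional CD4 cells and 83.5 and 66.0 CPM in regulatory cells. Without Cd8 UMI cells the order of the libraries for Rpa2 turned in both CD4 gates. It was then at 61.1 and 63.9 CPM in conventional CD4 cells and at 49.7 and 55.1 CPM in regulatory cells. Rfc2 and Fen1 were 2 of the 3 lowest members in CD8 cells. Rfc2 was at 95.9 and 89.6 CPM there (log2 ratio -0.09), at 85.4 and 67.9 CPM in conventional CD4 cells and at 91.4 and 77.2 CPM in regulatory cells. Fen1 was at 60.2 and 56.8 CPM (-0.08), 47.3 and 37.8 CPM, and 60.8 and 45.9 CPM. Pcna was at 105 and 102 CPM, 93.8 and 82.0 CPM, and 103 and 86.4 CPM.

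Nucleotide supply held both the member with the highest ratio in CD8 cells, Rrm2, and that with the lowest in regulatory cells, Tk1. Tyms makes thymidylate, Rrm1 and Rrm2 form ribonucleotide reductase, Dut removes dUTP, and Tk1 salvages thymidine. Their sum was 482 CPM for WT and 514 CPM for VISTA-KO in CD8 cells (ratio 1.07, 1.04 to 1.09), 368 and 277 CPM in conventional CD4 cells (0.752) and 481 and 311 CPM in regulatory cells (0.646, 0.619 to 0.673), the lowest regulatory ratio of the 9 roles after helicase activation. Rrm2 (chr12:24708254-24714146) stood at 69.4 CPM (66.8 to 72.2) in CD8 cells of WT and 91.0 CPM (87.5 to 94.6) in those of VISTA-KO, a log2 ratio of 0.37, and at 72.6 and 50.1 CPM in regulatory cells. In conventional CD4 cells it was at 45.0 and 39.6 CPM. The order of the libraries for Rrm2 was thus opposite in CD8 and regulatory cells.

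Tk1 (chr11:117815519-117826087) had the same pattern, with 51.9 and 59.1 CPM in CD8 cells (log2 ratio 0.17), 36.7 and 24.5 CPM in conventional CD4 cells (-0.50) and 59.3 and 36.1 CPM in regulatory cells (-0.65). It was the lowest member in both CD4 gates, and in conventional CD4 cells it stopped just short of the call. With Cd8 UMI cells left out, its conventional CD4 levels were 16.2 and 15.7 CPM (-0.04) and its regulatory levels 50.9 and 28.1 CPM (-0.75). Dut (chr2:125247248-125259049), the member with the most UMIs, stood at 216 CPM (212 to 221) and 211 CPM (206 to 217) in CD8 cells, 171 and 123 CPM in conventional CD4 cells (-0.46), and 186 and 119 CPM in regulatory cells (-0.63). Tyms was at 77.0 and 49.7 CPM in regulatory cells (-0.58), 50.7 and 40.9 CPM in conventional CD4 cells and 67.0 and 71.7 CPM in CD8 cells. Rrm1 was at 85.7 and 56.0 CPM in regulatory cells (-0.57), 65.0 and 49.0 CPM in conventional CD4 cells (-0.37) and 76.9 and 80.9 CPM in CD8 cells. With Cd8 UMI cells left out, Dut was at 108 and 98.1 CPM in conventional CD4 cells (-0.13). Tyms was then at -0.14 there, Rrm1 at -0.25 and Rrm2 at -0.06. In regulatory cells Dut was then at -0.51, Tyms at -0.61, Rrm1 at -0.51 and Rrm2 at -0.60.

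Checkpoint and fork protection genes summed to 214 and 226 CPM in CD8 cells, 185 and 161 CPM in conventional CD4 cells and 219 and 170 CPM in regulatory cells. Clspn, which carries the replication checkpoint signal to Chk1, stood at 27.9 CPM (26.2 to 29.6) in CD8 cells of WT and 33.0 CPM (30.9 to 35.2) in those of VISTA-KO (log2 ratio 0.21), at 19.8 and 15.8 CPM in conventional CD4 cells, and at 29.2 and 20.6 CPM in regulatory cells (-0.42). Dtl, which directs a ubiquitin ligase to Cdt1 and other proteins on the clamp, was the lowest member in CD8 cells at 26.1 and 23.3 CPM (log2 ratio -0.14), and was at 19.8 and 15.0 CPM in conventional CD4 cells and 24.1 and 14.7 CPM in regulatory cells (-0.57). Tipin, of the fork protection complex, and Usp1, which removes ubiquitin from Pcna, had CD8 log2 ratios of 0.09 and 0.06 and regulatory ratios of -0.34 and -0.24. Without Cd8 UMI cells the order of the libraries for Clspn turned in conventional CD4 cells, at 9.13 and 11.7 CPM (0.24). There Tipin was at 0.07, Usp1 at 0.01 and Dtl at -0.04. The regulatory ratios were then -0.20 for Clspn, -0.20 for Tipin, -0.22 for Usp1 and -0.28 for Dtl.

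The chromatin group had the regulatory ratio closest to 1 of the 9 roles, 0.903 (0.863 to 0.944). Uhrf1 and Hells keep DNA methylation in place, Chaf1b sets histones on new DNA, Slbp binds histone mRNA, Casp8ap2 is needed for histone gene expression, and Cdca7 is a partner of Hells. Slbp (chr5:33640055-33652574) stood at 152 and 153 CPM in CD8 cells, 140 and 127 CPM in conventional CD4 cells, and 141 and 139 CPM in regulatory cells, the narrowest spread across groups of the 3 members with the most UMIs. Casp8ap2 alone lay above 0 in regulatory cells, at 50.2 CPM (47.0 to 53.5) and 56.1 CPM (51.5 to 61.1), a log2 ratio of 0.15, and was at 51.5 and 51.7 CPM in CD8 cells. Without Cd8 UMI cells 4 of 27 members lay above 0 in regulatory cells, Casp8ap2 (0.19), Rpa2 (0.14), Slbp (0.11) and Chaf1b (0.06). Uhrf1 was at 39.3 and 26.7 CPM in regulatory cells (-0.48) and Hells at 45.4 and 32.6 CPM (-0.42). Chaf1b was at 31.5 and 31.1 CPM in CD8 cells, 29.8 and 25.1 CPM in regulatory cells, and 23.1 and 23.4 CPM in conventional CD4 cells, where it, Casp8ap2 (45.0 and 46.9 CPM) and Tcf19 (28.6 and 31.6 CPM) were the 3 members above 0.

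The repair genes Ung, a uracil-DNA glycosylase, Exo1, an exonuclease, and Blm, a helicase, stayed under 20 CPM in every group and summed to 28.8 and 29.4 CPM in CD8 cells and 24.6 and 19.6 CPM in regulatory cells. Of the transcription genes, E2f1 activates the program, E2f8 represses it later in S phase, and Tcf19 is a nuclear factor induced at the G1 to S transition. They summed to 55.0 and 59.5 CPM in CD8 cells, 49.4 and 49.6 CPM in conventional CD4 cells, and 54.1 and 36.6 CPM in regulatory cells (ratio 0.676). Tcf19, the one of them above 20 CPM, was at 30.7 and 33.0 CPM in CD8 cells and at 31.4 and 21.4 CPM in regulatory cells (-0.46).

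Within each library the members were lower in conventional CD4 than in CD8 cells. All 30 members with at least 20 CPM in 1 of these classes lay below 0 in both libraries, with a median log2 ratio of -0.30 in WT and -0.54 in VISTA-KO, against 0.04 for all genes in each. In WT 2 of the 30 were called lower, where 1.74% of genes were, and in VISTA-KO 18, where 3.99% were. Regulatory over CD8 cells gave a median of -0.01 in WT, with 1 member called lower (3.24% of genes), and -0.47 in VISTA-KO, with 9 called lower (5.51% of genes). Rpa2 was at -0.62 and -0.96 there. With Cd8 UMI cells left out of the CD4 gates, and CD8 cells required to hold both Cd8a and Cd8b1 and no Foxp3, the medians moved. They were then -0.67 and -0.81 for conventional CD4 cells and -0.27 and -0.71 for regulatory cells. These comparisons share the CD8 cells of their library.

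Members differed widely in how far they went with the other 39. For each member in turn, thinned CD8 cells were split at 5 summed UMIs of the others, which describes the members and tests nothing, since all of them enter the rule. Mcm10 was found in 2.22% of WT cells above that line and in 0.0229% of the rest, and in VISTA-KO in 3.88% and 0.0293%, so that 4.55% and 3.03% of its UMIs lay outside cells rich in the other members. Mcm10 stood at only 6.20 and 6.41 CPM in CD8 cells, so its values below the line rest on very few UMIs. Cdc6 was found in 3.77% and 0.161% of WT cells and in 4.97% and 0.146% of VISTA-KO cells, Clspn in 10.9% and 0.619% and in 15.6% and 0.556%, and Tk1 in 17.1% and 1.12% and in 19.1% and 0.992%. Rrm2 was found in 18.3% and 1.46% of WT cells and in 23.3% and 1.23% of VISTA-KO cells. Of the UMIs of these genes, between 3.03% (Mcm10, VISTA-KO) and 23.6% (Rrm2, WT) lay in cells below the line.

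Rpa2 was at the other end, in 25.6% of WT cells above the line and 19.6% of the rest, and in 32.6% and 20.1% of VISTA-KO cells, with 81.5% and 75.4% of its UMIs in cells below the line. Usp1 (21.4% and 12.3% in WT), Casp8ap2 (1.72 times as frequent above the line), Slbp (38.7% and 20.5%), Rfc2 (25.4% and 12.2%) and Mcm6 (39.9% and 18.5%) were also common in cells with few UMIs of the others. Between the extremes lay Mcm2, Mcm3, Mcm5 and Mcm7, from 4.01 times as frequent above the line for Mcm2 to 5.56 times for Mcm5 in WT. Slbp and Casp8ap2, with the highest log2 ratios of VISTA-KO over WT in regulatory cells, belonged to the members that other cells held as well.

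**Figure D3:**
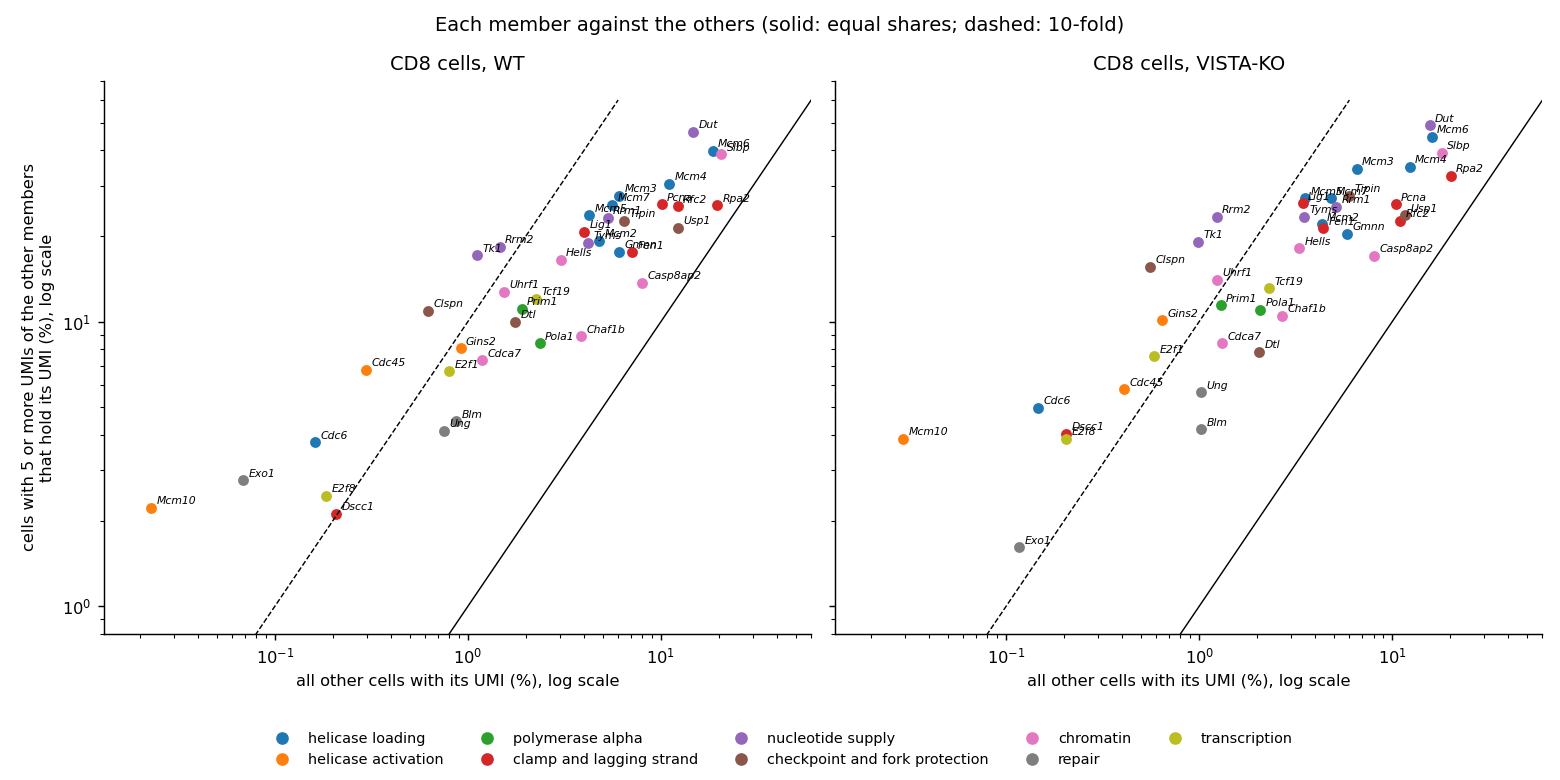
For each member, the share of CD8 cells holding its UMI among cells with 5 or more UMIs of the other members (y axis, percent, log scale) against the share among all other cells (x axis, percent, log scale), in WT and VISTA-KO. The solid line marks equal shares and the dashed line a 10-fold excess. Mcm10 lies far to the left of the dashed line, on very few UMIs, and Rpa2 close to the solid one.

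Genes outside the 40 were read in the same cells. Thinned CD8 cells with 5 or more member UMIs (901 in WT and 747 in VISTA-KO) were set against those with 0 (577 and 529). Of a list of 50 other replication genes, 42 in WT and 44 in VISTA-KO had at least 20 CPM in either set of cells. In WT 36 of the 42 were called higher, where 14.2% of all genes were called higher and 7.01% lower. In VISTA-KO 40 of the 44 were called higher, where 17.7% and 6.96% of all genes were. Median log2 ratios were 1.17 and 1.51, against 0.05 and 0.11 for all genes. A gene could pass this filter through the set where it was higher, as Asf1b and Ccne1 did, and all genes were filtered alike. In whole CD8 cells 33 of the 50 reached 20 CPM in WT or VISTA-KO. Asf1b, a histone chaperone, stood at 98.7 CPM against 9.53 CPM in WT and 110 CPM against 8.51 CPM in VISTA-KO. Cdt1, the partner of Cdc6 in loading, stood at 69.1 against 37.3 CPM and 74.0 against 40.6 CPM, and Orc4, of the origin recognition complex, at 39.6 against 36.4 CPM and 35.7 against 33.1 CPM. Orc4 had the lowest ratio of the list in both libraries, and Asf1b was among its 3 highest. Of the 30 genes on a mitosis list, 28 reached 20 CPM and all 28 were called higher in either library. Mki67 stood at 204 against 35.5 CPM in WT and 323 against 20.8 CPM in VISTA-KO, and Top2a at 220 against 25.1 CPM and 338 against 21.7 CPM. Of a list of 26 genes of G1 control, 8 of 17 were called higher in WT and 11 of 18 in VISTA-KO, with 1 lower in each. Among them Ccne1, the cyclin of S phase entry, stood at 36.2 against 3.47 CPM and 30.3 against 9.45 CPM. The D cyclins Ccnd2 (154 against 184 CPM in WT, 166 against 211 CPM in VISTA-KO) and Ccnd3 (292 against 331 CPM, 341 against 329 CPM) were not called, and the inhibitor Cdkn1b stood at 110 against 144 CPM and 111 against 186 CPM, called lower in VISTA-KO (-0.72) and not in WT (-0.37).

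Replication and mitosis transcripts overlapped in part. Of CD8 cells with 5 or more member UMIs, 41.4% (38.2 to 44.7) for WT and 42.8% (39.3 to 46.5) for VISTA-KO also held 5 or more UMIs of the mitosis list, and of those with 10 or more member UMIs 72.3% and 68.1% did. In regulatory cells the first share was 56.2% (50.1 to 62.2) for WT and 46.0% (37.6 to 54.7) for VISTA-KO, and in conventional CD4 cells 41.2% and 31.5%. Cells high in both had median depths of 15353 and 13482 UMIs in CD8 cells, against 5700 and 6239 for cells with replication transcripts only. A further 7.24% of WT and 6.08% of VISTA-KO CD8 cells reached 5 UMIs of the mitosis list but not of the members. Their median depths were 4965 and 6205 UMIs. The highest gene of the mitosis list in CD8 cells, Hmgb2, stood at 860 and 915 CPM, so reaching 5 UMIs of the list does not by itself mark a dividing cell. Splitting CD8 cells with 5 or more member UMIs by the mitosis list separated the members. Rrm2 was at 315 CPM in mitosis-high and 24.6 CPM in mitosis-low WT cells (log2 ratio 3.43) and at 469 and 34.0 CPM in VISTA-KO (3.60). Cdc45 (2.30 and 2.51), Clspn (2.23 and 2.15), Tk1 (2.22 and 2.20) and Cdc6 (2.65 and 1.94) were also mostly in mitosis-high cells. Mcm6 was even, at 351 and 335 CPM in WT (0.07) and 403 and 388 CPM in VISTA-KO (0.06). Rpa2 (-0.40 and -0.17), Casp8ap2 (-0.28 and -0.06) and Cdca7 (-0.11 and -0.35) were lower in mitosis-high cells in both libraries. In all, 36 of the 40 members lay above 0 in both libraries, 3 below 0 in both, and 29 at 0.5 or more in both. Mitosis-high cells held more member UMIs as a whole, so the ratios describe an order among members rather than a change of each.

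**Figure D4:**
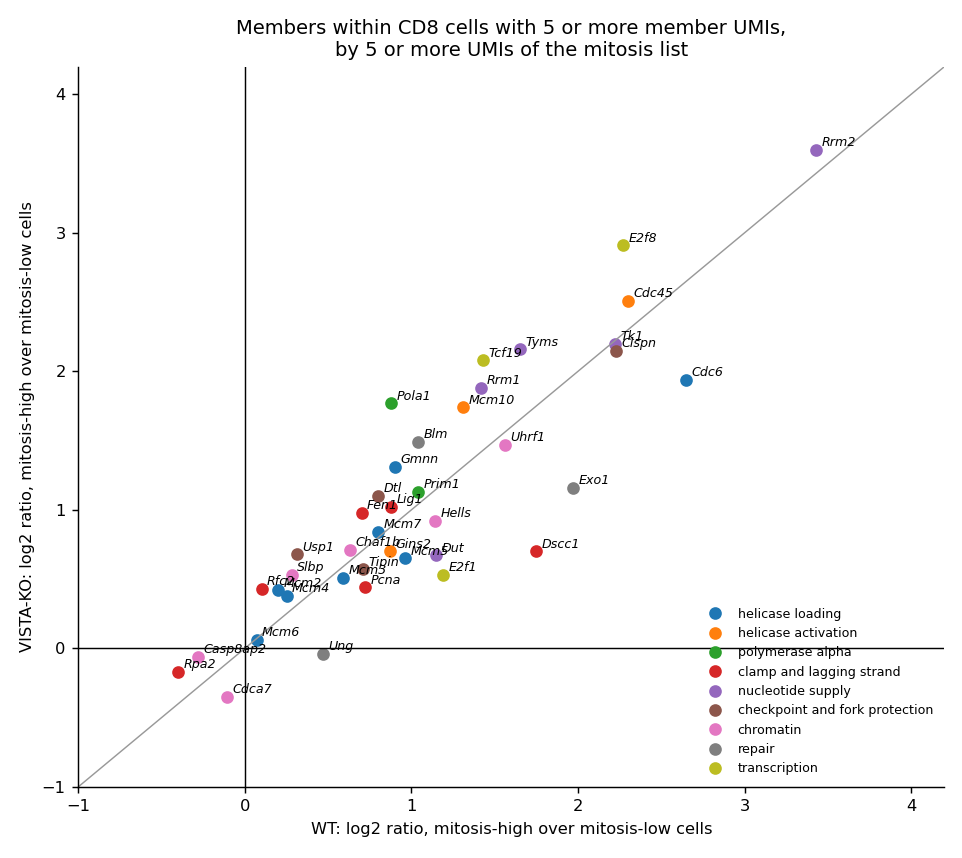
Log2 ratio of each member (CPM plus 5) between CD8 cells with 5 or more and with fewer than 5 UMIs of the mitosis list, all with 5 or more member UMIs, in WT (x axis) and VISTA-KO (y axis), colored by role. Rrm2 lies at 3.43 and 3.60 at the upper right, Mcm6 near 0, and Rpa2, Casp8ap2 and Cdca7 below 0 in both.

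The mitosis list, which the rule did not use, differed more between the libraries than the members did in regulatory cells. In regulatory cells 21 of its 26 genes with at least 20 CPM in either library were called lower in VISTA-KO, against 2.50% of all genes, with a median of -0.88. Without Cd8 UMI cells 23 of 25 were, against 2.68%, with a median of -1.33. A gene could pass this filter through the library where it was higher, and all genes were filtered alike. Cenpf (47.2 and 17.5 CPM) and Cdc20 (33.3 and 14.1 CPM) passed through WT alone in regulatory cells, as did Ccnb2 (45.3 and 19.1 CPM) in conventional CD4 cells. Mki67 stood at 152 and 89.1 CPM, Top2a at 155 and 87.3 CPM, and Cdk1 at 46.7 and 22.8 CPM in WT and VISTA-KO regulatory cells. In conventional CD4 cells 8 of 19 were called lower (median -0.38), against 2.75% of all genes, and without Cd8 UMI cells 2 of 10 were called lower and 1 higher (median -0.09), where 2.65% of genes were called lower and 1.37% higher. In CD8 cells 0 of 26 were called, where 1.08% of all genes were called higher and 0.690% lower, with a median of 0.19, Mki67 at 103 and 120 CPM and Top2a at 118 and 145 CPM. The other replication genes had medians of 0.00 in CD8 cells (0 of 33 called), -0.11 in conventional CD4 cells (0 of 29) and -0.25 in regulatory cells (2 of 30 called lower, against 2.50% of all genes). The cell cycle inhibitors Cdkn1a and Cdkn1b lay on the other side of 0 in regulatory cells, at 45.4 and 68.3 CPM (0.54) and 164 and 217 CPM (0.39), while the inhibitors Cdkn2c (43.0 and 34.8 CPM, -0.27) and Cdkn2d (86.7 and 84.1 CPM, -0.04) did not. Cdkn1a was also called higher in conventional CD4 cells, at 44.0 and 75.4 CPM (0.71), where Cdkn1b was at 157 and 188 CPM. Their CD8 levels were 28.6 and 31.3 CPM and 129 and 145 CPM.

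Within CD8 cells the share with 5 or more member UMIs differed by marker gene, and the activation markers did not all go the same way. It was 22.3% (20.6 to 24.2) of WT cells with a Pdcd1 UMI, which codes for the inhibitory receptor PD-1, and 13.5% (12.3 to 14.7) of those without, and in VISTA-KO 24.0% (21.8 to 26.2) and 14.6% (13.3 to 16.0). For Havcr2, the receptor TIM-3, the shares were 27.5% and 16.4% in WT and 27.0% and 17.0% in VISTA-KO. For Cd69, an early activation marker also held by resident T cells, the order was opposite, with 13.6% (12.3 to 15.0) of WT cells with a UMI and 20.6% (19.1 to 22.2) of those without, and 14.5% and 21.8% in VISTA-KO. For the chemokine receptor Cxcr6 the intervals overlapped, at 16.9% and 17.4% in WT and 18.8% and 16.8% in VISTA-KO, as they did for Cx3cr1 (18.5% and 17.0%, and 17.7% and 17.9%). Cells with a Tcf7 UMI, a factor of stem-like and memory T cells, gave 9.24% (7.69 to 11.0) for WT and 9.11% (7.31 to 11.2) for VISTA-KO, against 19.6% and 20.4% without. Those with an Il7r UMI gave 7.38% and 8.53%. For the cytotoxic gene Gzmb the gap was wider in VISTA-KO, with 22.2% (20.4 to 24.0) of cells with a UMI and 13.4% (12.0 to 15.0) of those without, against 18.6% (17.0 to 20.2) and 15.9% (14.6 to 17.3) in WT. That difference between the libraries was not tested. Cells with Pdcd1 or Havcr2 UMIs were also deeper before thinning, with medians of 5798 and 7422 UMIs in WT against 4640 and 4913 without.

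Across clonotype sizes, the CD8 libraries differed most at 20 or more cells. Cells were put in 1 clonotype when their best covered alpha and beta chains had identical V genes and identical CDR3 bases. Its size was counted within 1 class of 1 library, so a clonotype seen once in a class can have further cells in other classes. CD8 cells whose clonotype was seen once gave 10.9% (8.91 to 13.2) for WT and 11.5% (9.82 to 13.4) for VISTA-KO, clonotypes of 2 to 4 cells 16.7% and 15.0%, and those of 5 to 19 cells 22.3% (19.3 to 25.5) and 22.5% (19.6 to 25.6). Clonotypes of 20 or more cells gave 16.8% (15.2 to 18.5) for WT and 27.4% (24.2 to 30.8) for VISTA-KO. The largest WT clonotype, with 987 thinned cells, gave 10.4% (8.60 to 12.5), and the largest VISTA-KO clonotype, with 288, gave 27.1% (22.0 to 32.6). The clonotypes of rank 3 by size gave 40.5% of 79 cells and 40.0% of 60 cells, at median depths of 11265 and 11104 UMIs. With the clonotype of rank 1 left out of both libraries, the CD8 shares were 18.7% for WT and 17.3% for VISTA-KO, in the reverse order. The median log2 ratio of the members was then -0.09, Rrm2 was at 0.15, Clspn at 0.01 and Tk1 at -0.03. Among conventional CD4 cells, clonotypes of 20 or more cells gave 32.9% of 73 WT cells and 14.2% of 190 VISTA-KO cells, those of 5 to 19 cells 8.50% and 11.1%, those of 2 to 4 cells 8.47% and 8.35%, and those seen once 7.65% and 9.35%. The conventional CD4 gate also held cells of the largest CD8 clonotype. Leaving that clonotype out took the gate from 1634 to 1609 thinned cells in WT and from 2890 to 2889 in VISTA-KO. Its part in the 32.9% was not tested. Regulatory cells with a clonotype seen once gave 14.0% (11.0 to 17.5) of 463 and 8.56% (6.63 to 10.8) of 724, and those of 2 to 4 cells 14.7% of 136 and 14.0% of 150, without such a gap. Cells without a clonotype are in none of these sizes. In regulatory cells they were 735 of 1483 in WT and 326 of 1219 in VISTA-KO. Their shares were 22.3% (19.4 to 25.5) and 16.6% (12.7 to 21.1), at median depths of 13843 and 8918 UMIs.

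**Figure D5:**
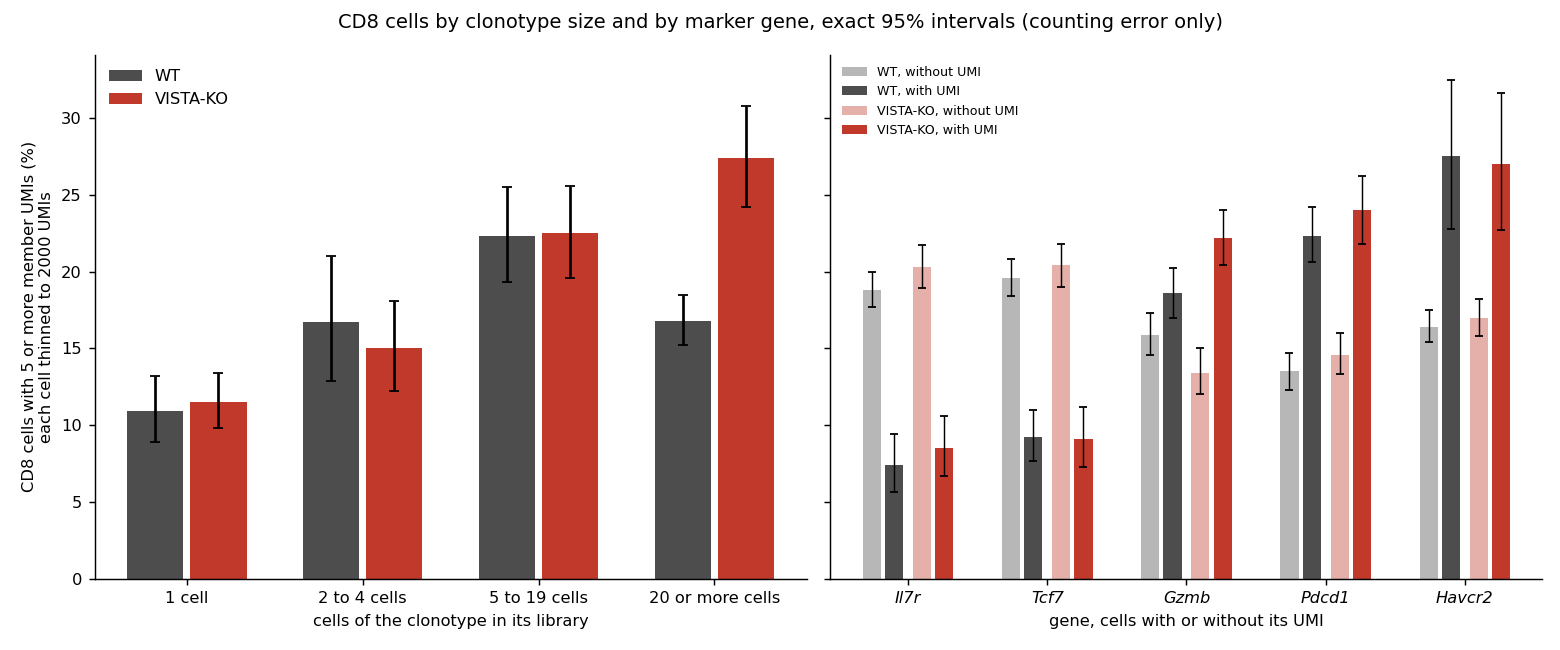
Share of CD8 cells with 5 or more summed member UMIs (y axis, percent, each cell thinned to 2000 UMIs) by the size of the clonotype among CD8 cells of its library (left) and by marker gene (right, pale bars without and full bars with its UMI), in WT (grey) and VISTA-KO (red), with exact 95% intervals. Shares go from 10.9% and 11.5% in clonotypes seen once to 22.3% and 22.5% at 5 to 19 cells, and at 20 or more cells they stand at 16.8% and 27.4%. Of the 2067 WT cells at 20 or more, 987 belong to 1 clonotype.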

How the data were processed

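T cells sorted from B16 tumors were measured as 1 gene expression and 1 T cell receptor library per genotype. The deposited gene tables hold raw UMI counts per gene and cell, which per the file headers came from Cell Ranger 5.0.0, and the submitters' processing notes name mm10 (GRCm38) and Seurat 4. The labels describe a 3′ kit and the study's methods a 5′ kit, which bears on where in a gene the UMIs lie. The deposited receptor tables gave UMI counts per chain.

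Cells were kept from 600 detected genes upwards and below 30% mitochondrial UMIs, and no doublet caller was run. Classes were gated as in the report, and cells were thinned once to 2000 UMIs without replacement, which leaves out shallower cells. UMIs were summed per class and given as CPM. Log2 ratios used a pseudocount of 5 CPM, a minimum of 20 CPM in 1 library, and 0.5 in size for a call. With 1 library per genotype no test was made. Intervals are exact 95% Clopper-Pearson for shares and Poisson for counts, and 0 cells were read as allowing 3. Ratios of sums carry approximate intervals of the same kind. Depth was 72098984 UMIs for WT and 59916814 for VISTA-KO. Members and gene lists were chosen with earlier results of these data known. Named were the 3 members with most UMIs, the 3 highest and lowest per class, and others by role. Alternatives were the thinning depth, thresholds, gates, pseudocount, scaling and cells left out. The scripts were tested on simulated data. Python 3.11.15, numpy 2.4.6, pandas 2.3.3, scipy 1.17.1 and matplotlib 3.10.9 were used.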

Additional observations from a re-analysis of the deposited data

Results flagged for a closer look

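The ratio of the VISTA-KO to the WT share of cells with 5 or more member UMIs was 1.05 in CD8 cells, 0.913 in conventional CD4 cells and 0.622 in regulatory cells. It was singled out because the CD8 ratio lies on the other side of 1 from both CD4 gates. With 1 library per genotype the difference between classes was not tested.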

How the results depend on the processing

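The CD8 share ratio of VISTA-KO over WT, 1.05, was 1.18 at 1000 UMIs per cell, 0.941 at 4000 UMIs, 1.30 at a threshold of 10 UMIs, 1.16 without the 5 members with most UMIs (Dut, Mcm6, Slbp, Rpa2 and Mcm4), and 0.924 with each library's largest clonotype left out. The regulatory ratio, 0.622, stayed below 1 and was 0.803 at 4000 UMIs, 0.830 with no thinning and 0.848 at a threshold of 3. It was 0.504 at a threshold of 10 and 0.761 with strict gates. Strict gates took no Cd8 UMI in the CD4 gates, and both Cd8a and Cd8b1 but no Foxp3 in CD8 cells. The conventional CD4 ratio, 0.913, was 1.07 with strict gates. The count of members past 0.5 in regulatory cells, 8, was 13 with a pseudocount of 1 CPM, 2 with 20 CPM, and 13 with CPM taken without mitochondrial and ribosomal protein genes. In conventional CD4 cells the count of 0 became 1 with a pseudocount of 1 CPM, without mitochondrial and ribosomal protein genes, without cells with 2 or more beta chains, and at 1000 detected genes or more. The CD8 median was -0.09 without the largest clonotype. With strict gates the medians over CD8 cells were -0.67 and -0.81 for conventional CD4 cells and -0.27 and -0.71 for regulatory cells, in WT and VISTA-KO, and the conventional CD4 median of VISTA-KO was -0.36 as a mean of per-cell CPM. The cause of these shifts was not tested. Of the main results, 97 values under other settings stayed close to the main ones and 23 moved. Leaving out barcodes shared by the libraries or cells with melanoma UMIs, and gating classes on the thinned UMIs, were chosen after seeing the data. The last gave ratios of 1.02, 0.823 and 0.681 in CD8, conventional CD4 and regulatory cells, the regulatory one on 484 and 540 cells with an approximate interval of 0.455 to 1.02. No paired analysis was possible because each genotype has 1 pooled library. Genes under 20 CPM rest on few UMIs per cell, and a share at equal depth counts cells with UMIs, not cells in S phase.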
